A study of Homo sapiens with 12 samples.

Results

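FKBP5 and 7 other cochaperones that work with HSP90 on steroid receptors were followed in prostate cancer cells whose level of ARv7 had been raised or lowered. The set was taken by gene name (FKBP5, FKBP4, PPID, PTGES3, STIP1, AHSA1, CDC37 and SUGT1), and all 8 were found among the 19973 genes of the deposited expression table. ARv7 is a receptor splice variant that prostate tumours can express. RNA was sequenced in 4 groups of 3 libraries, each library from its own dish. C4-2 ARv7 cells carried a lentivirus expressing the variant and C4-2 control cells an empty one. In 22Rv-1, which makes ARv7 of its own, shARv7 cells carried a short hairpin against it and shcontrol cells a control hairpin. All groups were infected with lentivirus, selected with puromycin and grown in serum, with no androgen or drug named as a treatment. C4-2 is a castration-resistant derivative of LNCaP, and 22Rv-1 was derived from a relapsed CWR22 xenograft. The labels do not state how many separately selected lines stand behind a group. The p-values therefore measure only the spread between dishes, which may be technical, and selection effects cannot be told apart from the effect of ARv7.

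Steroid receptors fold and wait for hormone in complexes with the chaperone HSP90. HSP70 and the adaptor STIP1 deliver the receptor, and PTGES3 then holds the closed complex together. An immunophilin with tetratricopeptide repeats (FKBP5, FKBP4 or PPID) joins the mature form. FKBP5 is a long-known androgen-induced gene in prostate cells. Its protein is known to dampen the glucocorticoid receptor.

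FKBP5 lies on chromosome 6 (35573585 to 35728583, reverse strand, GRCh38). RefSeq (GRCh38.p14) gave 2 windows of 250 bases upstream of annotated starts of the gene, shown here because FKBP5 is the gene the results turn on. They are read 5′ to 3′ on the reverse strand and stop before any base of an annotated exon. Capitals mark the GC box GGGCGG and the CCAAT box.

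FKBP5 upstream of the distal start (chr6:35728584-35728833): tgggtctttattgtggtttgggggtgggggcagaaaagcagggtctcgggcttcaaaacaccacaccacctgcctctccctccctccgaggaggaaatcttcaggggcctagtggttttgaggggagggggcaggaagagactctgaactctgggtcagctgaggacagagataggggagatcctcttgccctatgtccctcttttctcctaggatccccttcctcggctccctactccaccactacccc
FKBP5 upstream of the proximal start (chr6:35688943-35689165): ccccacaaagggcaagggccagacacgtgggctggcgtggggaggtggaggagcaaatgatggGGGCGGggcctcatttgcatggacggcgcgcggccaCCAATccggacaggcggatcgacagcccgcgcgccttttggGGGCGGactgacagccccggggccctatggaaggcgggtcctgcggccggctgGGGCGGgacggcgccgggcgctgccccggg

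The windows differ in composition. Over the 250 bases, 57.6% of the distal window and 74.8% of the proximal one were G or C. The proximal window held 3 GC boxes, 187, 110 and 57 bases before its start, and a CCAAT box at 151 bases, and the distal window held neither. Neither window held the steroid receptor core AGAACA or its reverse complement TGTTCT, nor the heat shock pair GAANNTTC or TTCNNGAA. Over all 35116 such RefSeq windows the steroid receptor core occurred in 12.4%, the heat shock pair in 11.6%, the CCAAT box in 32.0% and the GC box in 42.6%, counting both strands. RefSeq windows were found for 7 of the 8 genes, 10 windows in all. Among these the steroid receptor core was in 1 window (AHSA1), the heat shock pair in 0, the CCAAT box in 2 (FKBP5 and STIP1) and the GC box in 6. These counts used the full 250 bases, which can include annotated exons. In the AHSA1 window with the match, 203 of the 250 bases lie in exons of AHSA1 or VIPAS39. In the STIP1 window with the CCAAT box, 110 lie in exons of STIP1. Absence of a match says only that those letters are not in these windows.

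The libraries held 12318529 to 14672948 counts each, so that 3 counts stood at 0.204 to 0.244 CPM, counts scaled to the same total in each library. No cochaperone had fewer than 370 counts in a library, and all 8 passed the filter on low counts in every comparison. Levels below are CPM with TMM scaling over the 12 libraries, a scaling that lines up the bulk of genes between libraries. C4-2 control replicate 3 stood apart, at a chi-square over degrees of freedom of 6.85 to 12.3 from the other libraries of its group, beside 2.10 to 4.64 for all other replicate pairs. Without it the same 6 of the 8 genes were called in C4-2. Markers of luminal prostate epithelium were present in every group and did not move together in C4-2. FOLH1 averaged 1239 CPM in C4-2 ARv7 and 970 in C4-2 control cells. HOXB13 averaged 395 CPM in C4-2 ARv7 and 577 in C4-2 control cells, KRT8 292 and 381, EPCAM 197 and 253, and KRT18 204 and 208. In 22Rv-1, FOLH1 averaged 816 CPM in shARv7 and 671 in shcontrol cells, HOXB13 326 and 311, KRT8 477 and 325, EPCAM 37.7 and 24.3, and KRT18 147 and 116. Basal, leukocyte and endothelial markers summed to at most 2.69 CPM in any library and the fibroblast markers COL1A1 and DCN to 7.21 to 23.2. The part of these markers in the results was not tested. In bulk RNA, fewer cells of a kind and less RNA per cell cannot be told apart.

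**Figure D1:**
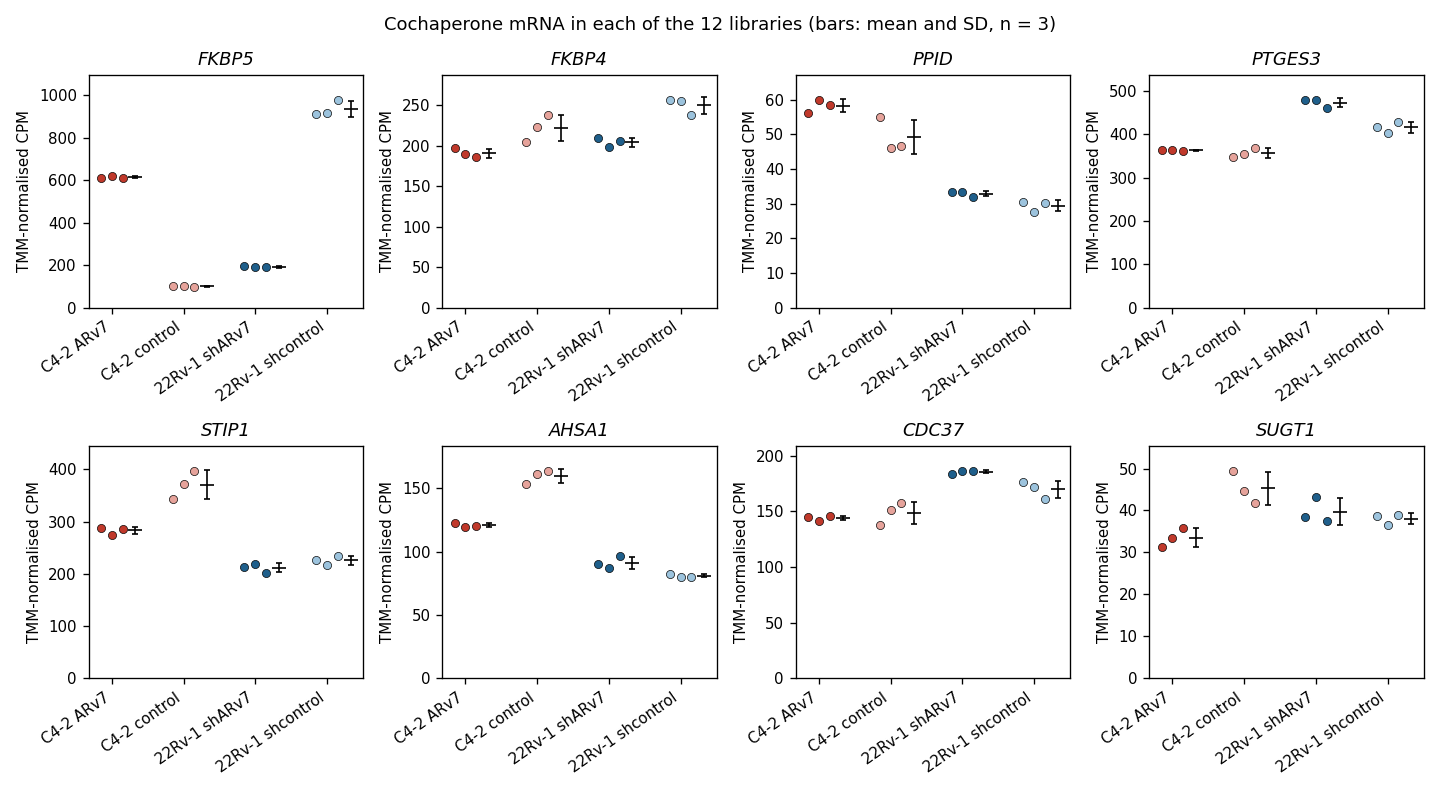
TMM-normalised CPM of the 8 cochaperone genes in each library, with a panel per gene, the 4 groups along the horizontal axis, a point per library and bars for the mean and SD (n = 3). FKBP5 separates the groups into levels near 615, 101, 191 and 936 CPM. The group means of AHSA1 run from 81.2 to 159.5, of PPID from 29.5 to 58.2 and of STIP1 from 211 to 371 CPM. Both C4-2 groups lie above both 22Rv-1 groups for AHSA1, PPID and STIP1, but not for FKBP5.

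FKBP5 was the only one of the 8 genes to change by more than 2-fold within a line, and its direction followed ARv7 in both lines. It had 612, 621 and 611 CPM in C4-2 ARv7 cells, against 102, 102 and 97.0 CPM in C4-2 control cells. It had 194, 189 and 191 CPM in shARv7 cells, against 911, 917 and 979 CPM in shcontrol cells. Neither pair of groups overlapped. The log2 fold change was 2.60 ± 0.058 (SE) in C4-2, 6.07-fold (edgeR quasi-likelihood test with Benjamini-Hochberg adjusted p = 8.56e-18). In 22Rv-1 it was -2.28 ± 0.045 (SE), 4.87-fold lower (edgeR adjusted p = 4.68e-56). Among all tested genes it was the 215th highest of 12783 changes in C4-2 and the 42nd lowest of 13459 in 22Rv-1. Across the 4 groups its level ran, low to high, C4-2 control, shARv7, C4-2 ARv7 and shcontrol, with no overlap between neighbours. Depleted 22Rv-1 cells thus still held more FKBP5 mRNA than C4-2 control cells.

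Relative to high over low ARv7, the FKBP5 change was larger in C4-2 than in 22Rv-1. The difference was 0.32 on the log2 scale (95% interval 0.18 to 0.47; edgeR quasi-likelihood interaction contrast over the 12 libraries, Benjamini-Hochberg adjusted p = 0.000318). ARv7 was added in C4-2 and depleted in 22Rv-1, and counts per gene do not measure how far the variant itself moved. Line, type of manipulation and size of the ARv7 change therefore cannot be told apart in this difference. Between the control vectors of the lines, FKBP5 was 9.31-fold higher in shcontrol than in C4-2 control cells (log2 3.22, edgeR adjusted p = 6.04e-35). Line and vector type cannot be told apart in that contrast, and it shares its control libraries with the comparisons within each line.

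The other 7 genes moved little in C4-2. With FKBP5, 2 of the 8 were higher in C4-2 ARv7 than in C4-2 control cells, 4 were lower and 2 did not pass. Of all 12783 genes tested, 59.1% were called, 29.6% higher and 29.5% lower, so 6 of 8 called is close to the background. The libraries of 6 of the 8 did not overlap between the groups, 2 higher and 4 lower, as for 63.3% of all tested genes, 32.8% higher and 30.5% lower. The median log2 change of the 8 was -0.14, against 0.01 over all genes.

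Among the immunophilins, FKBP4, the FKBP5 paralog that binds dynein and aids receptor transport to the nucleus, had 197, 190.0 and 186 CPM in C4-2 ARv7 cells, against 205, 223 and 238 CPM in C4-2 control cells. The groups did not overlap, and the change was -0.23 ± 0.062 (log2, SE; edgeR adjusted p = 0.00383). With total counts in place of TMM it was -0.08 and no longer passed (edgeR adjusted p = 0.254; 0.000215 to 0.254 over 15 alternatives). The FKBP4 call held in 12 of these 15. PPID, the cyclophilin of receptor complexes, had 56.2, 60.0 and 58.5 CPM in C4-2 ARv7 cells, against 54.9, 46.1 and 46.7 CPM in C4-2 control cells. These groups lay apart by a narrow gap, with control replicate 1 near the ARv7 cells. PPID rose by 0.23 ± 0.082 (log2, SE; edgeR adjusted p = 0.0211), a call lost without control replicate 2 or without ARv7 replicate 2 or 3 (edgeR adjusted p = 0.119, 0.0818 and 0.0631; 0.00128 to 0.119 over 15 alternatives).

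STIP1, the adaptor that joins HSP70 to HSP90, had 288, 275 and 286 CPM in C4-2 ARv7 cells, against 343, 372 and 398 CPM in C4-2 control cells. AHSA1, which stimulates the ATPase of HSP90, had 123, 119.8 and 121 CPM in C4-2 ARv7 cells, against 153, 161 and 164 CPM in C4-2 control cells. SUGT1, which links HSP90 to immune receptors and kinetochore assembly, had 31.3, 33.4 and 35.8 CPM in C4-2 ARv7 cells, against 49.5, 44.7 and 41.8 CPM in C4-2 control cells. For each of these genes every ARv7 library was below every control library. STIP1 fell by 0.40 ± 0.060 (log2, SE; edgeR adjusted p = 1.17e-05). AHSA1 fell by 0.41 ± 0.059 (log2, SE; edgeR adjusted p = 7.35e-06). SUGT1 fell by 0.45 ± 0.090 (log2, SE; edgeR adjusted p = 0.000247), a call lost in limma on log2(FPKM + 1) and log2(FPKM + 0.1) (adjusted p = 0.0522 and 0.0567; 2.31e-06 to 0.0567 over 15 alternatives).

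PTGES3, which stabilises the closed HSP90 complex, had 364, 364 and 362 CPM in C4-2 ARv7 cells, against 347, 355 and 369 CPM in C4-2 control cells. CDC37, the cochaperone that brings protein kinases to HSP90, had 144, 142 and 146 CPM in C4-2 ARv7 cells, against 138, 151 and 158 CPM in C4-2 control cells. Both pairs of groups overlapped. The log2 changes were 0.01 for PTGES3 (95% interval -0.10 to 0.13) and -0.06 for CDC37 (-0.19 to 0.07), and neither passed (edgeR adjusted p = 0.846 and 0.445). The direction of both depended on the setting. With total counts CDC37 was at 0.09 and PTGES3 passed at 0.16 (edgeR adjusted p = 0.197 and 0.0098; 0.13 to 0.777 for CDC37 and 0.00851 to 0.96 for PTGES3 over 15 alternatives each). Without control replicate 1 PTGES3 was at -0.01.

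**Figure D2:**
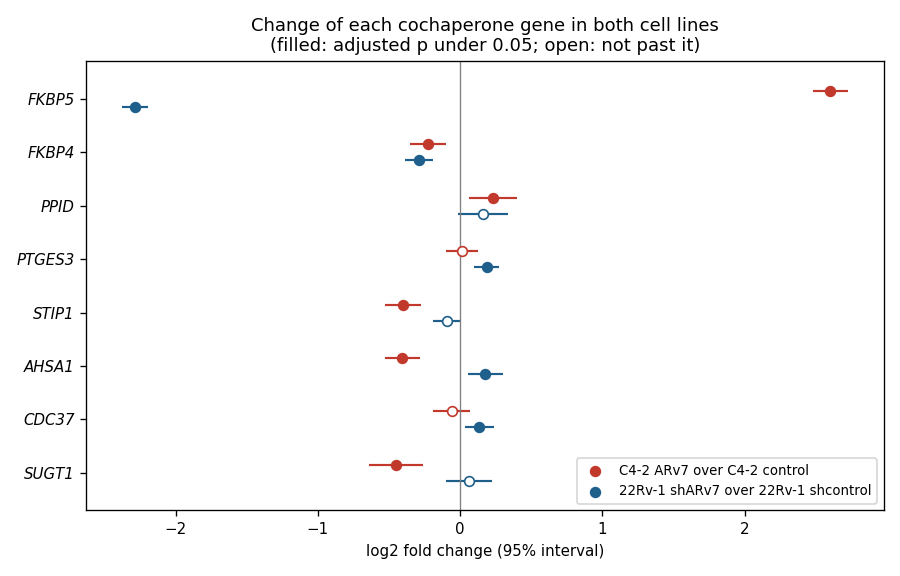
Log2 fold change of each gene (horizontal axis) for C4-2 ARv7 over C4-2 control and 22Rv-1 shARv7 over 22Rv-1 shcontrol, with 95% intervals and filled points for an edgeR adjusted p under 0.05. FKBP5 lies at 2.60 and -2.28, and no other gene lies beyond -0.45 or 0.23.

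In 22Rv-1, 3 of the 8 genes were higher in shARv7 than in shcontrol cells, 2 were lower and 3 did not pass. Of all 13459 genes tested, 48.0% were called, 23.9% higher and 24.1% lower, so 5 of 8 again lies near the background. The libraries of 6 of the 8 did not overlap between the groups, 4 higher and 2 lower, as for 53.7% of all tested genes, 26.6% higher and 27.2% lower. The median log2 change of the 8 was 0.10, against 0.01 over all genes.

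FKBP4 had 209, 198 and 206 CPM in shARv7 cells, against 257, 255 and 238 CPM in shcontrol cells, and the groups did not overlap. It fell by 0.29 ± 0.049 (log2, SE; edgeR adjusted p = 9.31e-07). FKBP4 was therefore lower both with ARv7 added to C4-2 and with ARv7 depleted in 22Rv-1, and only the 22Rv-1 call held with total counts. PPID had 33.3, 33.2 and 32.1 CPM in shARv7 cells, against 30.4, 27.7 and 30.3 CPM in shcontrol cells. These did not overlap, but the change of 0.16 (95% interval -0.01 to 0.34) did not pass (edgeR adjusted p = 0.124). Total counts gave edgeR adjusted p = 0.0427 and limma on FPKM with a pseudocount of 1 gave 0.0132, both past the threshold (0.0132 to 0.375 over 15 alternatives).

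PTGES3 had 479, 480 and 461 CPM in shARv7 cells, against 418, 403 and 428 CPM in shcontrol cells. It rose by 0.19 ± 0.044 (log2, SE; edgeR adjusted p = 0.000236), and the groups did not overlap. AHSA1 had 90.0, 87.4 and 96.7 CPM in shARv7 cells, against 82.8, 80.4 and 80.3 CPM in shcontrol cells. CDC37 had 184, 187 and 186 CPM in shARv7 cells, against 176, 172 and 161 CPM in shcontrol cells. All shARv7 libraries were above all shcontrol libraries for both genes. AHSA1 rose by 0.18 ± 0.061 and CDC37 by 0.13 ± 0.051 (log2, SE; edgeR adjusted p = 0.0138 and 0.0265). The AHSA1 call was lost without shcontrol replicate 2 or shARv7 replicate 3 (edgeR adjusted p = 0.0524 and 0.141; 0.00177 to 0.141 over 15 alternatives). The CDC37 call was lost without shcontrol replicate 2 or 3 or shARv7 replicate 2 or 3 (edgeR adjusted p = 0.0595, 0.0876, 0.0894 and 0.0873; 0.00242 to 0.0894 over 15 alternatives). Without shcontrol replicate 2, or without shARv7 replicate 3, only 3 of the 8 genes were called (FKBP5, FKBP4 and PTGES3).

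STIP1 had 213, 219 and 202 CPM in shARv7 cells, against 226, 217 and 235 CPM in shcontrol cells. SUGT1 had 38.5, 43.3 and 37.5 CPM in shARv7 cells, against 38.7, 36.6 and 38.9 CPM in shcontrol cells. Both pairs of groups overlapped. The log2 changes were -0.09 for STIP1 (95% interval -0.19 to 0.01) and 0.06 for SUGT1 (-0.10 to 0.23), and neither passed (edgeR adjusted p = 0.117 and 0.538).

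The size of the response to high against low ARv7 was then compared between the lines, as the C4-2 change (ARv7 over control) minus the 22Rv-1 change (shcontrol over shARv7). For 3 genes this difference was above 0, for 4 it was below 0, and for 1 it did not pass, where 50.7% of all 14235 genes passed, 27.4% above and 23.3% below. FKBP4 was at -0.51 and STIP1 at -0.49 (log2; edgeR interaction contrast, Benjamini-Hochberg adjusted p = 1.93e-06 and 3.12e-06). FKBP4 was lower in C4-2 ARv7 and in shARv7 cells, and STIP1 was lower in C4-2 ARv7 cells and did not pass in shARv7 cells. PPID was at 0.40 and SUGT1 at -0.38 (edgeR adjusted p = 0.00447 and 0.00906). PTGES3 was at 0.21 and AHSA1 at -0.23 (edgeR adjusted p = 0.0134 and 0.0234). For CDC37 it was 0.08 (95% interval -0.08 to 0.25; edgeR adjusted p = 0.421). FKBP5, FKBP4, STIP1 and PPID kept their call under all 20 alternatives. AHSA1 kept its call under only 12 of the 20, SUGT1 under 17 and PTGES3 under 19. CDC37 gained one with total counts and in limma. As for FKBP5 above, line, type of manipulation and size of the ARv7 change cannot be told apart in these differences.

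All 8 genes differed between 22Rv-1 shcontrol and C4-2 control cells, 4 higher and 4 lower, where 83.4% of all 14235 genes tested differed, 42.5% higher and 40.9% lower. None of the 8 overlapped between these groups, and 82.6% of all tested genes did not (42.2% higher and 40.4% lower), so neither count stands apart from the background. Next to FKBP5, the kinase cochaperone CDC37 (log2 0.19, edgeR adjusted p = 0.00263), PTGES3 (0.22, 0.000125) and FKBP4 (0.17, 0.00515) were higher in 22Rv-1 shcontrol. AHSA1, PPID, STIP1 and SUGT1 were lower there, at log2 -0.97, -0.74, -0.71 and -0.25 (edgeR adjusted p = 1.39e-17, 3.14e-10, 2.6e-14 and 0.00709). The FKBP4 and SUGT1 calls were lost without C4-2 control replicate 1 (edgeR adjusted p = 0.0595 and 0.06; up to 0.0595 and 0.405 over 20 alternatives). For AHSA1, PPID and STIP1 both 22Rv-1 groups lay below both C4-2 groups with no overlap. For CDC37 and PTGES3 both 22Rv-1 groups lay above both C4-2 groups.

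Levels of different genes were compared in FPKM, reads scaled to gene length and library total. These values carry no TMM scaling, so those of a gene in different groups are not on the CPM scale above. They depend on the deposited gene lengths, 10628 bases for FKBP5 and 15102 for SUGT1. PTGES3 was the most abundant of the 8 in every group, at 108, 96.5, 147 and 125 FPKM in C4-2 ARv7, C4-2 control, shARv7 and shcontrol cells, and SUGT1 the least, at 2.24, 2.76, 2.78 and 2.57. FKBP5 changed its place the most. It stood at place 3 from the top in C4-2 ARv7 cells (58.4 FPKM) and at place 7 in C4-2 control cells (8.70 FPKM). It stood at place 6 in shARv7 cells (19.0 FPKM) and at place 2 in shcontrol cells (89.7 FPKM). STIP1 and FKBP4 in shcontrol cells, at 50.05 and 49.4 FPKM, were the neighbours in this order whose libraries overlapped.

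FKBP5 and FKBP4 compete for the same place on HSP90, so their mRNA ratio was set out by library. FKBP5 to FKBP4 in FPKM was 1.51, 1.59 and 1.60 in C4-2 ARv7 cells, against 0.242, 0.223 and 0.198 in C4-2 control cells. It was 0.452, 0.464 and 0.45 in shARv7 cells, against 1.72, 1.75 and 2.00 in shcontrol cells. FKBP5 thus exceeded FKBP4 in the libraries with high ARv7 and stayed below it in the others. The log2 ratio differed by 2.83 in C4-2 and by -2.00 in 22Rv-1. Each had p = 0.1 in a two-sided exact permutation test, the smallest that 3 against 3 libraries can give. FKBP5 made up 15.3% ± 0.20 of the summed FPKM of the 8 genes in C4-2 ARv7 and 2.61% ± 0.18 in C4-2 control cells. It made up 5.14% ± 0.073 in shARv7 and 21.7% ± 0.73 in shcontrol cells (SD, n = 3 each). The sum over the other 7 genes was 322 ± 3.05 FPKM in C4-2 ARv7, 325 ± 5.36 in C4-2 control, 351 ± 3.28 in shARv7 and 324 ± 5.13 in shcontrol cells. FPKM carries no TMM scaling, and the TMM factors differed between groups. They were 0.891 to 0.942 in C4-2 control and 1.007 to 1.016 in C4-2 ARv7 libraries. In 22Rv-1 they were 1.017 to 1.023 in shcontrol and 1.051 to 1.06 in shARv7 libraries. Likeness of this sum between groups rests on library totals and cannot be carried over to the CPM scale above.

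**Figure D3:**
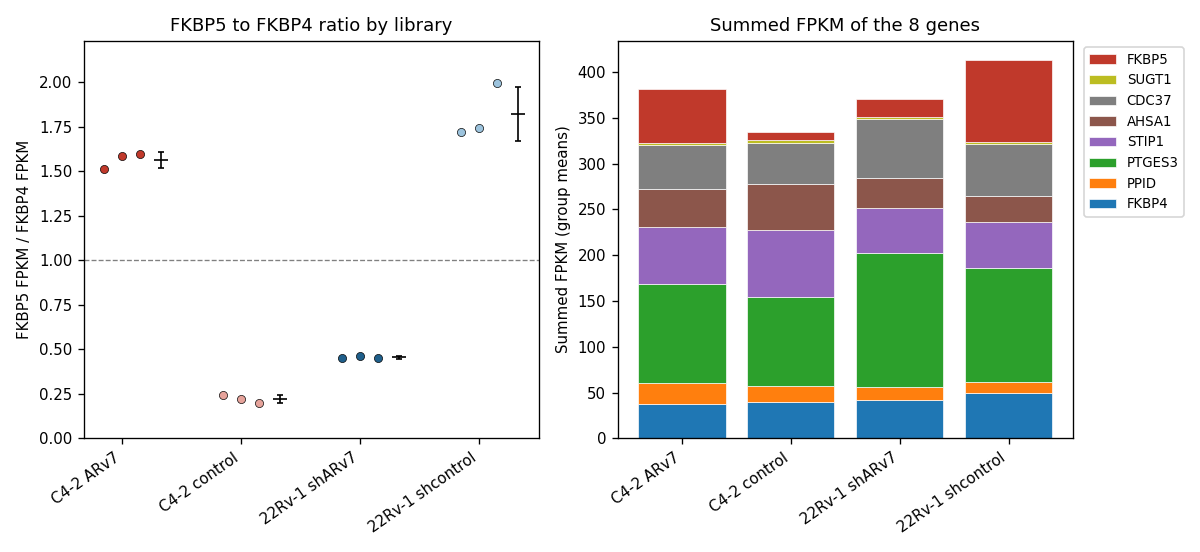
Left, FKBP5 FPKM over FKBP4 FPKM in each library with mean and SD (n = 3), with a dashed line at equal levels. Right, group means of FPKM, without TMM scaling, stacked over the 8 genes. The FKBP5 segment is 58.4, 8.70, 19.0 and 89.7 FPKM high from left to right, while the other 7 genes sum to 322 to 351.

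None of the other 7 cochaperones had a profile like that of FKBP5. Likeness was the root mean square difference of mean-centred log2 CPM over the 12 libraries, where 0 is the same profile. The other 7 lay at 1.27 (FKBP4) to 1.56 (AHSA1), near the median of 1.37 over 11158 genes, and a gene with no variation would lie at 1.29. The nearest genes were SLC38A4 (0.372), ELL2 (0.472), UNC80 (0.526), GRIN3A (0.529), OTULINL (0.530) and EPHA6 (0.595). SLC38A4, an amino acid transporter, had 35.9 ± 3.56 CPM in C4-2 ARv7 and 5.57 ± 0.67 in C4-2 control cells. In 22Rv-1 it had 7.42 ± 1.37 CPM in shARv7 and 72.3 ± 6.05 in shcontrol cells (SD, n = 3 each). ELL2, an elongation factor of RNA polymerase II and a known androgen-responsive gene, had 232 ± 9.03 CPM in C4-2 ARv7 and 33.1 ± 1.18 in C4-2 control cells. It had 49.1 ± 3.87 CPM in shARv7 and 151 ± 6.71 in shcontrol cells (SD, n = 3 each). ELL2 differs from FKBP5 in that its level in C4-2 ARv7 cells was above that in shcontrol cells.

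**Figure D4:**
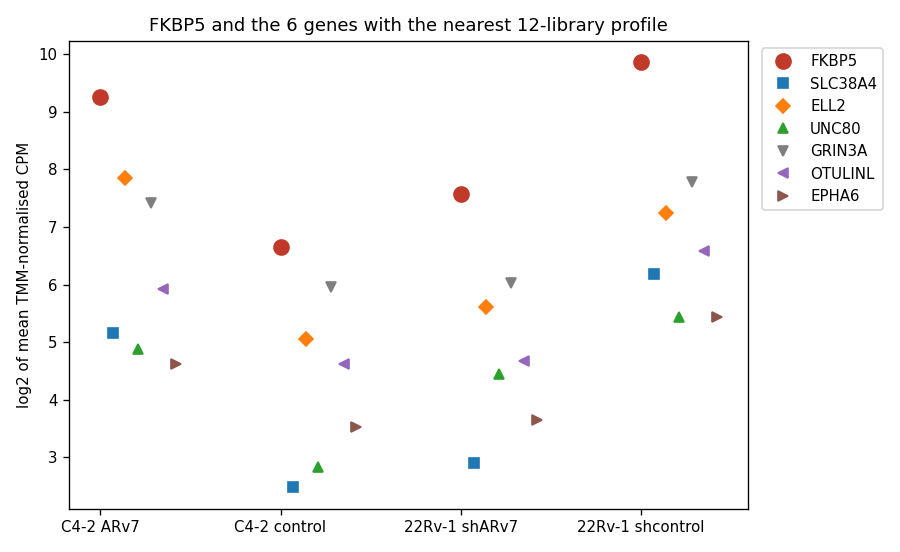
Log2 of the group mean CPM of FKBP5 and the 6 genes with the nearest profiles, by group. All 7 are higher in C4-2 ARv7 than in C4-2 control and lower in shARv7 than in shcontrol. The 6 were picked for nearness to FKBP5 in these same libraries, so the choice itself favoured a shared direction.

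Related genes of the chaperone system were counted in 7 lists, to be read against the shares of all tested genes, 29.6% higher and 29.5% lower in C4-2 and 23.9% higher and 24.1% lower in 22Rv-1. The medians over all genes were 0.01 in each line. Of 11 HSP90 and HSP70 chaperones, 4 were higher and 5 lower in C4-2 ARv7 than in C4-2 control cells (median log2 0.02, against 0.01 over all genes). In shARv7 against shcontrol cells 7 were higher and 1 lower (median 0.22, against 0.01), and without a library 5 to 8 were higher, 5 in all cases but the one without shcontrol replicate 3. HSPA5 and HSP90B1, the HSP70 and HSP90 of the endoplasmic reticulum, were higher in C4-2 ARv7 (log2 0.50 and 0.66, edgeR adjusted p = 2.7e-07 and 1.48e-08) and also higher in shARv7 cells (0.76 and 0.61, edgeR adjusted p = 1.26e-24 and 1.52e-21). HSPA1B, a stress-inducible HSP70 whose reads may be shared with its near-identical copy HSPA1A, was lower in C4-2 ARv7 (-1.01, edgeR adjusted p = 4.38e-10). HSPA9, the mitochondrial HSP70, was lower in shARv7 cells (-0.39, edgeR adjusted p = 1.77e-14). HSP90AB1, a cytosolic HSP90 named after its values were seen, had 1704 ± 18.9 CPM in shARv7 and 1420 ± 12.4 in shcontrol cells (log2 0.27, edgeR adjusted p = 2.73e-09). The other cytosolic HSP90, HSP90AA1, also named afterwards, was at -0.24 in C4-2 and 0.10 in 22Rv-1 (edgeR adjusted p = 0.00114 and 0.0215).

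Of 12 HSP40, nucleotide exchange and other HSP70 cochaperones, 1 was higher and 4 lower in C4-2 ARv7 cells (median -0.09), and 6 were higher in shARv7 cells and 6 did not pass (median 0.14). DNAJA1 and DNAJA2, HSP40 partners of HSP70, and BAG1, a nucleotide exchange factor, were lower in C4-2 ARv7 cells (log2 -0.79, -0.68 and -0.80, edgeR adjusted p = 4.38e-10, 6.2e-09 and 2.35e-07). DNAJB1, SGTB and ST13 were higher in shARv7 cells (0.46, 0.72 and 0.28, edgeR adjusted p = 7.01e-09, 1.08e-07 and 8.89e-07). SGTB was also the list member that was higher in C4-2 ARv7 (0.83, edgeR adjusted p = 5.77e-05), named here for C4-2 after its values were seen.

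Of 24 other HSP90 cochaperones, 22 were tested in C4-2, with 6 higher and 10 lower (median -0.11), and 23 in 22Rv-1, with 4 higher and 6 lower (median -0.06). CHORDC1, an HSP90 partner that binds SUGT1, had 99.1 ± 9.62 CPM in C4-2 ARv7 and 297 ± 32.8 in C4-2 control cells (log2 -1.60, edgeR adjusted p = 1.78e-12). It was higher in shARv7, at 66.5 ± 3.33 CPM, than in shcontrol cells, at 50.5 ± 3.86 (0.40, edgeR adjusted p = 1.89e-06). FKBP8, an FKBP anchored in mitochondria, moved the same ways, at -0.71 in C4-2 and 0.29 in 22Rv-1 (edgeR adjusted p = 6.27e-07 and 6.2e-07). PIH1D1, of the R2TP complex, was lower in C4-2 ARv7 (-0.58, edgeR adjusted p = 1.45e-06), and UNC45A, a myosin chaperone, was higher in shARv7 cells (0.42, edgeR adjusted p = 8.69e-08).

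Of 11 other FKBP genes 8 were tested. In C4-2 ARv7 cells 3 were higher and 1 lower (median 0.13), and in shARv7 cells 1 was higher and 7 did not pass (median 0.12). FKBP10, an FKBP of the endoplasmic reticulum that acts on collagen, was higher in both (log2 0.64 and 0.37, edgeR adjusted p = 2.93e-08 and 1.8e-09). FKBP9 was higher and FKBP14 lower in C4-2 ARv7 (0.76 and -0.52, edgeR adjusted p = 8.19e-06 and 0.000107). Among 15 cyclophilins, the family of PPID, 4 were higher and 2 lower in C4-2 ARv7 cells (median 0.07), and 2 were higher and 3 lower in shARv7 cells (median -0.06). PPIA, the abundant cytosolic cyclophilin, was lower in C4-2 ARv7 (-0.34, edgeR adjusted p = 3.08e-05) and higher in shARv7 cells (0.33, edgeR adjusted p = 2.81e-11). PPIH, of the spliceosome, was higher in C4-2 ARv7 (0.64, edgeR adjusted p = 0.000152) and lower in shARv7 cells (-0.52, edgeR adjusted p = 9.14e-05). PPIB was higher in C4-2 ARv7 (0.44, edgeR adjusted p = 6.08e-05) and in shARv7 cells (0.25, edgeR adjusted p = 0.00544, and 0.0867 without shARv7 replicate 1).

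Counts in these lists shifted with the scaling. With total counts in C4-2 the chaperones went to 6 higher and 4 lower, HSP70 cochaperones to 4 and 4, other FKBP genes to 5 and 1, and cyclophilins to 9 and 1. The other HSP90 cochaperones in C4-2 went to 7 higher and 8 lower. In 22Rv-1 the chaperones went to 9 higher and 1 lower, and HSP70 cochaperones to 7 higher. The other HSP90 cochaperones there went to 7 higher and 5 lower, other FKBP genes to 4 higher, and cyclophilins to 2 and 1. Leaving out a library moved some counts as well. Cyclophilins lower in shARv7 cells numbered 1 without shcontrol replicate 1 or shARv7 replicate 3, and those higher numbered 1 without shARv7 replicate 1. In C4-2 ARv7, 1 cyclophilin was lower without control replicate 2, and 2 HSP70 cochaperones were higher without control replicate 3. Of the named genes in the lists other than HSP90AA1, PPIB and ESR2 in 22Rv-1 lost their call when a library was left out. HSP90AB1 in C4-2 is not described as changed for the same reason, although it is among the 4 chaperones counted as higher (log2 0.17, edgeR adjusted p = 0.0246). HSP90AA1 calls without a library are not given here.

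Steroid receptors that such complexes serve were also read. The glucocorticoid receptor gene NR3C1 was lower in C4-2 ARv7, at 1.63 ± 0.41 CPM, than in C4-2 control cells, at 3.34 ± 0.36 (SD, n = 3 each; log2 -1.03, edgeR adjusted p = 0.0043), on 17 to 31 and 40 to 47 counts per library. In 22Rv-1 it had 53.2 ± 0.77 CPM in shARv7 and 51.0 ± 6.51 in shcontrol cells (log2 0.06, edgeR adjusted p = 0.506). The mineralocorticoid receptor gene NR3C2 was at log2 0.10 and -0.04 and did not pass (edgeR adjusted p = 0.498 and 0.743). ESR2, an oestrogen receptor gene, was at -0.68 in C4-2 (edgeR adjusted p = 0.173). In 22Rv-1 ESR2 was lower in shARv7 cells (-0.79, edgeR adjusted p = 0.0155), a call lost without shcontrol replicate 3 or shARv7 replicate 3 (0.168 and 0.0594). PGR and ESR1, the progesterone and oestrogen receptor genes, had at most 8 and 3 counts in a library and were not tested. Of the 3 heat shock factors, HSF1, the main activator of stress chaperones, was lower in C4-2 ARv7 (log2 -0.36, edgeR adjusted p = 9.79e-05) and in shARv7 cells (-0.23, edgeR adjusted p = 0.000451). HSF4 was higher in C4-2 ARv7 (0.57, edgeR adjusted p = 1.95e-05) and HSF2 lower in shARv7 cells (-0.38, edgeR adjusted p = 0.000184).

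The positions of the other 7 genes on GRCh38 were chromosome 12 (2794970 to 2805423) for FKBP4, 4 (158709127 to 158723396) for PPID, 12 (56663341 to 56688408) for PTGES3 and 11 (64185272 to 64204543) for STIP1. AHSA1 lies on chromosome 14 (77457870 to 77469472), CDC37 on 19 (10391133 to 10420121) and SUGT1 on 13 (52652709 to 52700909). PPID overlaps ETFDH, AHSA1 overlaps VIPAS39 and CDC37 overlaps PDE4A on the opposite strand. No label states whether counting used strand, so reads in those overlaps cannot be assigned to either gene. GENCODE release 29 names 5 pseudogenes of FKBP4, 5 of PTGES3, 4 of SUGT1, 2 of CDC37 and 1 of STIP1, none of them in the table, and how reads shared with them were counted is not stated by any label.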

How the data were processed

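Per the labels' protocols, cells were lysed in TRIzol, sequenced on an Illumina NovaSeq and trimmed with Cutadapt 2.7. Aligner, counter and strand setting: none is given in the sources used here. The submitters' processing notes name hg18, but 19869 of 19876 identifiers found in GENCODE 29 lay within 10000 bp of its GRCh38 positions, so coordinates are given as GRCh38. The authors deposited raw read counts per gene and FPKM, which equalled count over length and total. One line, with no gene identifier, was left out of 19974.

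Each line was fitted on its own and the 12 libraries in a fit with 4 groups, using edgeR 4.0.16 (filterByExpr, TMM, glmQLFit, glmQLFTest) and Benjamini-Hochberg adjusted p under 0.05 over all tested genes. Genes tested numbered 12783 in C4-2, 13459 in 22Rv-1 and 14235 together. SEs were derived from the F statistic. Displayed CPM used TMM over 12 libraries, so quotients differ slightly from fitted folds. The steps were tested on simulated data. The 95% intervals of log2 changes come from the fitted spread between libraries, and the floor of 3 counts covers counting error only, since PCR copies were not told apart. Alternatives were DESeq2 1.42.0, its size factors, total counts, other filters, a replicate block, limma 3.58.1 with a trend on log2(FPKM + 1) or log2(FPKM + 0.1) at a mean FPKM of at least 1, a single fit, and leaving out each library. List counts under other scalings and without each library were added after seeing the data. Replicate numbers did not pair samples.

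The 8 genes and the lists were chosen with earlier results of these data known. Named genes were the 8, up to 3 called members of each list with the smallest adjusted p per comparison, the steroid receptors, and the 6 genes nearest to FKBP5 in profile at mean CPM of 5 or more (log2 CPM, prior count 2). A gene that this rule takes is not reported here.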

Additional observations from a re-analysis of the deposited data

Results flagged for a closer look

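For 7 of the 8 genes the change from low to high ARv7 differed between C4-2 and 22Rv-1 by the interaction contrast in edgeR. The difference, C4-2 minus 22Rv-1 on the log2 scale, was 0.32 for FKBP5, where both lines moved the same way and C4-2 moved more. It was -0.51 for FKBP4 and -0.49 for STIP1, -0.38 for SUGT1 and -0.23 for AHSA1. It was 0.40 for PPID and 0.21 for PTGES3. Over 20 alternatives the call held in only 12 for AHSA1, in 17 for SUGT1 and in 19 for PTGES3. Of all 14235 genes, 50.7% differed by the same test. Line, type of manipulation and size of the ARv7 change cannot be told apart in it.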

How the results depend on the processing

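FKBP5 kept its direction and its call under every alternative run, at log2 2.57 to 2.75 in C4-2 and -2.31 to -2.18 in 22Rv-1. The number of the 8 genes called in 22Rv-1 was 3 to 5 when a library was left out, 5 to 6 in C4-2, 6 to 7 for the difference between lines and 6 to 8 between control lines. Directions turned for genes with no call. CDC37 in C4-2 was at 0.0902 with total counts and at 0.0889 and 0.0906 in limma on log2(FPKM + 1) and log2(FPKM + 0.1). With a library left out, PTGES3 in C4-2 was at -0.0081 to 0.0327, the lowest without control replicate 1, and SUGT1 in 22Rv-1 at -0.0026 to 0.103, the lowest without shARv7 replicate 2. With total counts the median of all genes in C4-2 moved to 0.15 from 0.01, and 67.2% of calls were higher in place of 50.03%. In 22Rv-1 58.5% of calls were higher in place of 49.8%, and for the difference between lines 72.0% were above 0 in place of 54.0%.

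Same-numbered libraries did not deviate together (correlations -0.058 to 0.020 over 6 pairs). With a replicate block edgeR called 7310 genes in C4-2, 6203 in 22Rv-1, 6863 for the difference between lines and 10707 between control lines. The block ended the call of CDC37 in 22Rv-1 (adjusted p = 0.0515) and of AHSA1 between lines (0.0509). With total counts AHSA1 and SUGT1 lost their call between lines (edgeR adjusted p = 0.73 and 0.204) and CDC37 gained one (0.00375), as in limma. DESeq2 size factors ended that of PTGES3 (0.0545). Between control lines, SUGT1 lost its call with total counts (0.273). With at least 370 counts per library, none of the 8 genes was near the floor of 3 counts.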
